A study of Mus musculus with 19 samples.

Results

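The genes described here are 8 chains of the receptors for the IL-6, IL-12 and IL-17 cytokine families: Il6ra, Il6st, Il27ra, Il12rb1, Il12rb2, Il23r, Il17ra and Il17rb. They were taken by symbol (IL6RA, IL6ST, IL27RA, IL12RB1, IL12RB2, IL23R, IL17RA and IL17RB, in the capitals of the deposited table) from 24982 listed genes, and all 8 were among the 11464 genes with enough counts to be tested. The RNA came from regulatory T cells (Tregs), CD4+FoxP3-GFP+ T cells that restrain other immune cells, sorted by FACS into CD44high and CD44low subsets from lymph nodes that drain the site of injury. CD44 is a surface receptor that is high on T cells that have met antigen and low on resting T cells. Injured mice had received a burn of 20% of the body surface in water of 90 °C for 9 seconds and were sampled 7 days later, and uninjured (sham) mice had been held in water at room temperature for as long. There were 4 CD44high and 5 CD44low samples from uninjured mice, and 4 CD44high and 6 CD44low samples from injured mice, 19 in all, with 50000 cells per sample. All mice, controls included, were of the Foxp3DTR strain, in which the Foxp3 gene drives a fusion of the diphtheria toxin receptor with GFP, and the study used mice between 8 and 16 weeks of age. The labels do not say whether a sample held cells of 1 mouse or of several, so the p-values measure the spread between these samples only.

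Receptors of these families are built from a private chain, which sets the cytokine that is bound, and a shared chain. IL-6 binds IL-6Rα (Il6ra) and IL-27 binds Il27ra, and both signal with gp130 (Il6st) through JAK kinases and STAT proteins such as STAT3. IL-12 and IL-23 share Il12rb1, paired with Il12rb2 for IL-12, which signals mainly through STAT4 and favors Th1 cells, or with Il23r for IL-23, which signals mainly through STAT3 and sustains Th17 cells. Il17ra is the shared chain for IL-17 cytokines and pairs with Il17rb to bind IL-25, using the adaptor Act1 and TRAF6 instead of STATs.

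Promoters are shown for Il23r, Il17rb and Il6st, which differed between the subsets, and for Il12rb2, the neighbor of Il23r. RefSeq places Il12rb2 and Il23r on the same chromosome and strand with 3 gene models between them. Each window (RefSeq, GRCm38.p6) runs from 250 bases before to 50 bases after a start site, 5′ to 3′ on the gene's strand. Capitals mark matches on either strand to 1 of 8 motifs searched. For Il23r, Il17rb and Il6st this site is the start of the gene. For Il12rb2 it lies inside the gene, which starts at position 67376293 on the minus strand, so more than 50 bases of that window are within the gene.
Il12rb2 promoter (chr6:67376139-67376438, minus strand): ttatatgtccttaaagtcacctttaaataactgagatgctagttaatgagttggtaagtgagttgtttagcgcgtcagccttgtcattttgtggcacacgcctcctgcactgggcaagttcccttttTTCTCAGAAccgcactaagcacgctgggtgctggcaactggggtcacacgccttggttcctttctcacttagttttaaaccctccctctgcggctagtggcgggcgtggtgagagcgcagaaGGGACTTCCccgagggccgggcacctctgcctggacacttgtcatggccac
Il23r promoter (chr6:67491806-67492105, minus strand): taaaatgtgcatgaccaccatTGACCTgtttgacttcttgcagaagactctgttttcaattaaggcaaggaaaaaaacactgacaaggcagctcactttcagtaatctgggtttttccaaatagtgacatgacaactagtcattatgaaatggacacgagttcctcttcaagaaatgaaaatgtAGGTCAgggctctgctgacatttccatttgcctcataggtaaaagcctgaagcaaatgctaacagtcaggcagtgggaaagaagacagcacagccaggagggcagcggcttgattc
Il17rb promoter (chr14:30008847-30009146, minus strand): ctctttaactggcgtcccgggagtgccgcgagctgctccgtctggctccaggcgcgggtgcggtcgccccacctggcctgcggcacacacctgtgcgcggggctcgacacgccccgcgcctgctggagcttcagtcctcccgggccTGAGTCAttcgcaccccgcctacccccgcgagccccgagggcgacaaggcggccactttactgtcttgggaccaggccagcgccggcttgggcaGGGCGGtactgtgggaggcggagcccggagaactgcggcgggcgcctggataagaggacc
Il6st promoter (chr13:112463820-112464119, plus strand): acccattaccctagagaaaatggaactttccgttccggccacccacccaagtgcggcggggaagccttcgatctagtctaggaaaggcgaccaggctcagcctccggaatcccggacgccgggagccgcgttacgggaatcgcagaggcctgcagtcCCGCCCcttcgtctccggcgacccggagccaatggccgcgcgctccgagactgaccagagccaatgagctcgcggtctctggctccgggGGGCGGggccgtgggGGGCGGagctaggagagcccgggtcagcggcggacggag
The Il12rb2 window held a STAT motif (TTCNNNGAA), found in 8.3% of 32851 promoters of this length, and an NF-kB motif (GGGANTTCC), found in 1.68%. The Il23r window held 2 matches to the ROR element AGGTCA, which 16.3% of promoters contain. In the Il17rb window there was 1 AP-1 motif (TGANTCA, 7.81% of promoters) and 1 SP/KLF motif (GGGCGG, 35.7%), and the Il6st window had 3 SP/KLF motifs. No marked motif overlapped another. RUNX (TGTGGT, 16.8%), forkhead (TGTTTAC, 3.65%) and TCF/LEF (CTTTGA, 16%) letters were not in these windows, and the Il6ra window had no match to any of the 8 motifs. These are matches of letters only.

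Library totals lay between 5582234 and 9433610 counts. Levels are given in CPM, counts scaled to a common library total after TMM normalization. The sort was visible in Cd44, at 595 ± 37.5 CPM (SD, n = 4) in CD44high and 133 ± 16.1 CPM (n = 5) in CD44low Tregs of uninjured mice. Foxp3 did not pass the test between subsets (log2 fold change −0.39 ± 0.240 SE, adjusted p = 0.186, and −0.55 ± 0.233, adjusted p = 0.0681, in uninjured and injured mice). Markers of other cells were also counted. The summed level of 7 dendritic cell markers was 26.2 to 36.7 CPM in CD44high and 0.625 to 3.94 CPM in CD44low libraries of uninjured mice, with Clec9a at 0 in the latter, and 17.9 to 24.0 against 1.21 to 7.70 CPM in injured mice. The sum of 10 myeloid markers was 65.8 to 141 against 21.4 to 40.6 CPM in uninjured mice, with Ly6g at 0 in both and Cd14 at 0 in CD44high libraries, and 115 to 254 against 35.0 to 159.8 CPM in injured mice, where Ly6g was at 0 in CD44low libraries. The sums for 6 B cell markers (73.3 to 216 CPM over all libraries, none at 0 in a whole group) and 6 CD8 and NK cell markers (49.5 to 74.4 CPM, none at 0) overlapped between subsets. Single genes within these sums did differ. Of 5 tested CD8 and NK cell genes, Klrb1c passed the test as higher in CD44high Tregs in both settings, and 4 did not pass. Its mean was 3.71 against 0.294 CPM in uninjured and 12.8 against 2.32 CPM in injured mice. Of 6 tested B cell genes, 1 passed as higher, Cd79b in uninjured mice. In uninjured mice 5 of 5 tested dendritic cell genes and 5 of 8 tested myeloid genes passed as higher, and in injured mice 2 of 5 and 2 of 8. Over all genes tested, 46.1% passed in uninjured mice (24.7% higher) and 37.4% in injured mice (20.1% higher). Of 8 stroma and endothelium markers, Pecam1 gave most of the sum, 59.3 to 115 CPM in CD44high and 135 to 231 CPM in CD44low libraries. Pdpn and Ccl19 were at 0 in all groups. Col3a1 and Cdh5 were at 0 in both CD44low groups and had means of at most 0.301 CPM in the CD44high groups. Lyve1 was at 0 in uninjured CD44low libraries. Of the 2 that could be tested, Pecam1 was lower and Col1a1 higher in CD44high Tregs in both settings. The mean of Col1a1 was 2.36 against 0.0568 CPM in uninjured mice. The part of such cells in the results below was not tested.

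The first comparison was between CD44high and CD44low Tregs, in uninjured and in injured mice. Il12rb1, Il23r and Il17rb were higher in CD44high Tregs in both settings, by 4.00-fold, 46.3-fold and 23.3-fold in uninjured mice. Il6ra and Il6st were lower in both, by 2.12-fold and 2.60-fold in uninjured mice, and Il17ra was lower in injured mice by 1.31-fold. Il27ra and Il12rb2 did not pass the test in either. With edgeR (quasi-likelihood test, adjusted p below 0.05), 3 members were higher and 2 lower in uninjured mice, where 46.1% of all genes tested were called (24.7% higher and 21.3% lower), and 3 were higher and 3 lower in injured mice, where 37.4% were called (20.1% higher and 17.2% lower). In uninjured mice 5 of the 8 had groups that did not overlap, against 40.7% of all genes, and in injured mice 3 of the 8, against 24.8%. The median log2 fold change of the members was −0.20 in uninjured and −0.19 in injured mice, beside 0.01 and −0.00 over all genes tested. A subset with fewer cells that carry a transcript and a subset with less transcript per cell cannot be told apart in bulk RNA.

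**Figure D1:**
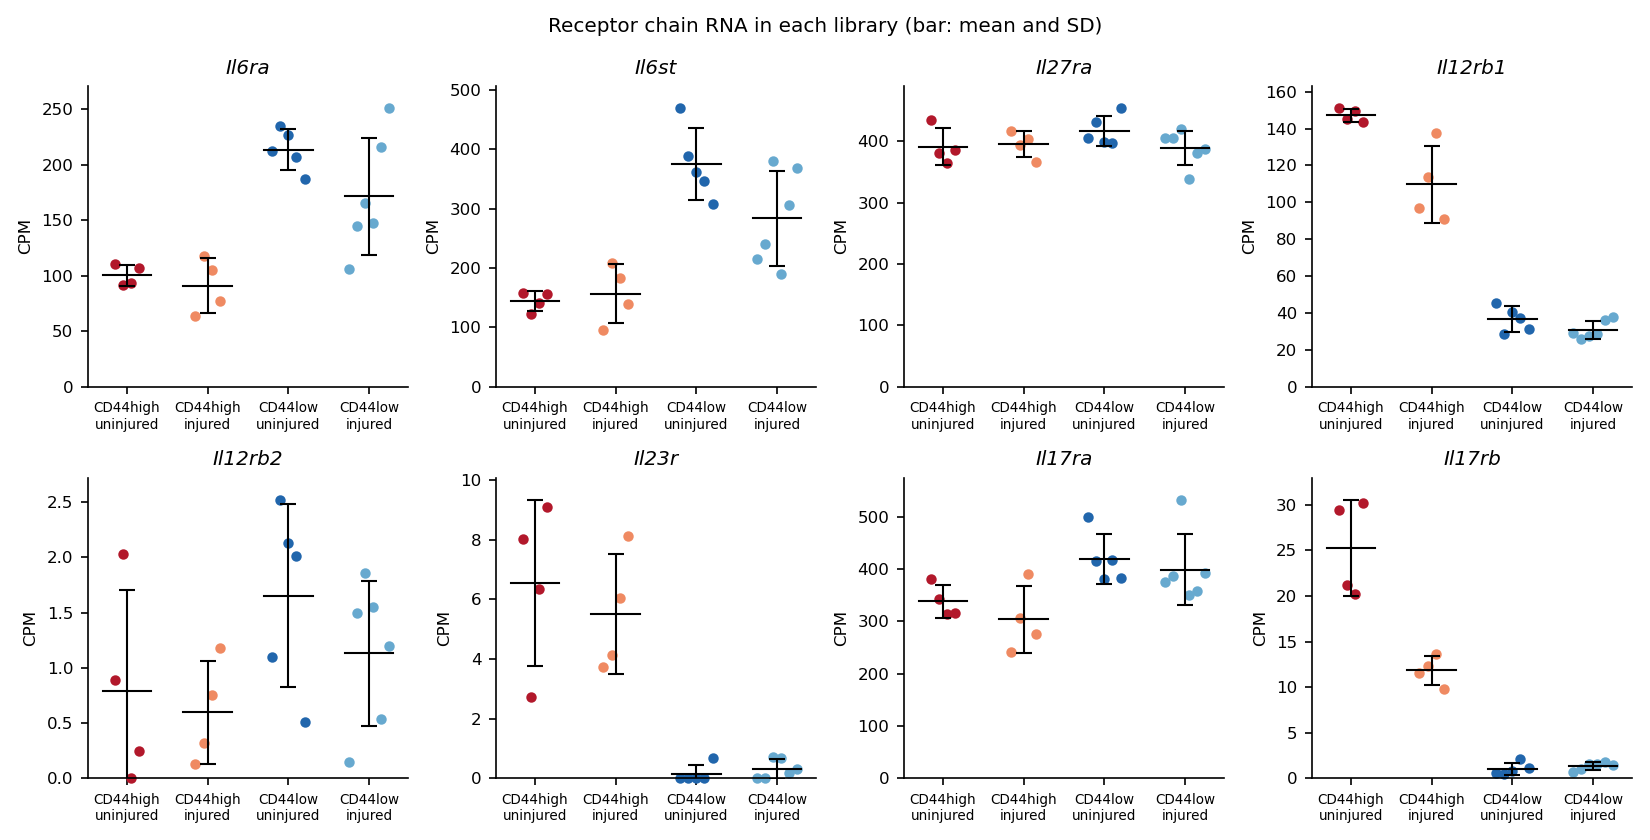
Level of each of the 8 receptor chains in each library, as CPM on a linear axis that starts at 0, for the 4 groups. Points are libraries, horizontal lines are group means and bars are the SD, cut at 0. Il12rb1, Il23r and Il17rb stand higher in all CD44high libraries, Il27ra is level across groups, and Il17rb falls in CD44high Tregs from injured mice.

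Among chains of the gp130 class, Il6ra was measured at 110.2, 91.7, 93.2 and 107 CPM in the CD44high libraries of uninjured mice and at 212, 234, 227, 207 and 187 CPM in the CD44low libraries. In injured mice the CD44high libraries were at 64.0, 118, 105 and 77.3 CPM, and the CD44low libraries ranged from 106 to 251 CPM with a median of 156 CPM. All uninjured CD44high libraries were thus below all CD44low libraries, while in injured mice the lowest CD44low library lay within the CD44high range. The log2 fold change of CD44high against CD44low was −1.09 ± 0.194 (SE, adjusted p = 7.82e-05) in uninjured and −0.91 ± 0.187 (adjusted p = 0.000475) in injured mice. The means ran from 214 ± 18.5 CPM (SD, n = 5) in uninjured CD44low through 172 ± 52.7 (n = 6) in injured CD44low to 101 ± 9.48 (n = 4) and 91.1 ± 24.8 (n = 4) in uninjured and injured CD44high Tregs. Injured and uninjured libraries overlapped within each subset.

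Il6st encodes gp130, the signaling chain shared by IL-6, IL-27 and related cytokines. It stood at 157, 122, 141 and 156 CPM in uninjured CD44high libraries and at 469, 388, 361, 347 and 308 CPM in uninjured CD44low libraries. In injured mice it was at 95.2, 208, 183 and 139 CPM in CD44high libraries, and between 191 and 379 CPM (median 273) in CD44low libraries. As for Il6ra, the subsets were apart in uninjured mice and touched in injured mice, where 1 CD44high library exceeded the lowest CD44low library. The difference was −1.38 ± 0.208 on the log2 scale (adjusted p = 9.05e-06) in uninjured and −0.86 ± 0.198 (adjusted p = 0.00146) in injured mice. Mean levels were 375 ± 60.1 CPM in uninjured CD44low, 283 ± 80.0 in injured CD44low, 156 ± 49.8 in injured CD44high and 144 ± 16.6 in uninjured CD44high Tregs.

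The private chain of the IL-27 receptor, Il27ra, was the most even of the 8. Its libraries lay at 434, 381, 364 and 385 CPM in uninjured CD44high and at 405, 431, 398, 396 and 453 CPM in uninjured CD44low Tregs. After injury they were at 417, 393, 404 and 367 CPM in CD44high Tregs and from 339 to 419 CPM (median 396) in CD44low Tregs. The 4 groups overlapped throughout. The log2 difference between subsets was −0.09 ± 0.0849 (adjusted p = 0.389) in uninjured and 0.02 ± 0.0815 (adjusted p = 0.855) in injured mice. With the dependence on transcript length described below taken out, the uninjured difference was −0.21 and was called (adjusted p = 0.0298).

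Il12rb1, the chain that IL-12 and IL-23 receptors share, had the tightest libraries in uninjured CD44high Tregs, at 151, 145, 149.6 and 143 CPM. The uninjured CD44low libraries were at 45.6, 28.5, 40.6, 37.4 and 31.6 CPM. In injured mice the CD44high libraries were at 97.2, 114, 137 and 90.9 CPM and the CD44low libraries between 26.0 and 37.8 CPM (median 29.0). Each CD44high library was above each CD44low library of the same mice. The log2 fold change was 2.00 ± 0.146 (adjusted p = 8.31e-11) in uninjured and 1.83 ± 0.139 (adjusted p = 2.42e-10) in injured mice. The 4 means fell in the order uninjured CD44high (147 ± 3.63 CPM), injured CD44high (109.8 ± 20.8), uninjured CD44low (36.7 ± 6.87) and injured CD44low (31.0 ± 4.82), and the last 2 groups overlapped.

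Il23r, the private chain of the IL-23 receptor, was counted 45, 16, 38 and 74 times in the uninjured CD44high libraries, or 8.02, 2.71, 6.34 and 9.10 CPM. Of the 5 uninjured CD44low libraries, 4 had no count and the library labelled 5 had 4 counts (0.675 CPM). In injured mice the CD44high libraries had 28, 39, 56 and 62 counts (3.72, 4.13, 6.04 and 8.12 CPM), and the CD44low libraries had between 0 and 5 counts (0 to 0.713 CPM, median 0.240). CD44high libraries were above CD44low libraries without exception in both settings. The summed counts, 173 against 4 in uninjured and 185 against 12 in injured mice, gave ratios of 55.1 (95% counting interval 21.1 to 205) and 18.1 (10.1 to 35.7). These intervals leave out the spread between libraries. The fitted log2 fold changes were 5.53 ± 0.797 (adjusted p = 4.75e-06) and 4.09 ± 0.656 (adjusted p = 2.67e-05). Without the CD44low library 5 the uninjured CD44low group had no count of Il23r, and the level in CD44high Tregs was then at least 60.2-fold higher, taking a floor of 3 counts over the 4 remaining libraries (the fitted log2 value, 8.51, depends on the prior count).

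Il12rb2, the signaling chain of the IL-12 receptor and the neighbor of Il23r in the genome, was near the limit of detection in all groups. It had 5, 12, 0 and 2 counts in the uninjured CD44high libraries and 7, 16, 15, 14 and 3 in the uninjured CD44low libraries. In injured mice it had 1, 3, 7 and 9 counts in CD44high libraries and ranged from 0.149 to 1.85 CPM (median 1.35) in CD44low libraries. The mean was higher in CD44low Tregs in both settings (1.65 ± 0.827 against 0.793 ± 0.909 CPM, and 1.13 ± 0.656 against 0.596 ± 0.468 CPM), but the groups overlapped. The log2 difference of −1.09 ± 0.753 (adjusted p = 0.246) in uninjured and −0.92 ± 0.737 (adjusted p = 0.343) in injured mice did not pass the test. The summed counts, 19 against 55 and 20 against 46, gave ratios of 0.440 (95% counting interval 0.247 to 0.753) and 0.511 (0.286 to 0.880), which leave out the spread between libraries.

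The shared chain Il17ra was at 381, 343, 314 and 316 CPM in uninjured CD44high and at 499.8, 416, 381, 417 and 382 CPM in uninjured CD44low libraries. In injured mice the CD44high libraries were at 240.5, 307, 391 and 277 CPM, and the CD44low libraries at 349.8 to 532 CPM (median 381). The subsets overlapped in both settings. The log2 difference was −0.31 ± 0.134 (adjusted p = 0.0638) in uninjured and −0.39 ± 0.129 (adjusted p = 0.0198) in injured mice, and only the latter was called. That call was lost without the injured CD44high library 2 (adjusted p = 0.0707) or 5 (adjusted p = 0.0711).

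Il17rb, the chain that gives the receptor its affinity for IL-25, was at 29.4, 21.2, 20.2 and 30.2 CPM in uninjured CD44high libraries and at 0.625, 0.473, 0.852, 2.16 and 1.18 CPM in uninjured CD44low libraries. In injured mice the CD44high libraries were at 11.6, 12.3, 13.7 and 9.82 CPM, and the CD44low libraries between 0.744 and 1.80 CPM (median 1.53). The subsets were far apart in both settings, and the uninjured and injured CD44high libraries did not overlap either. The log2 fold change between subsets was 4.54 ± 0.314 (adjusted p = 3.22e-11) in uninjured and 3.12 ± 0.286 (adjusted p = 6.35e-09) in injured mice. Il12rb1, Il23r and Il17rb were the members higher in the subset that also had higher sums of dendritic cell markers. Myeloid sums were higher there too, with overlap in injured mice. So were Klrb1c and Col1a1, while the other 4 tested CD8 and NK cell genes were not called and Pecam1 was lower. The part of other cells in the member differences was not tested.

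**Figure D2:**
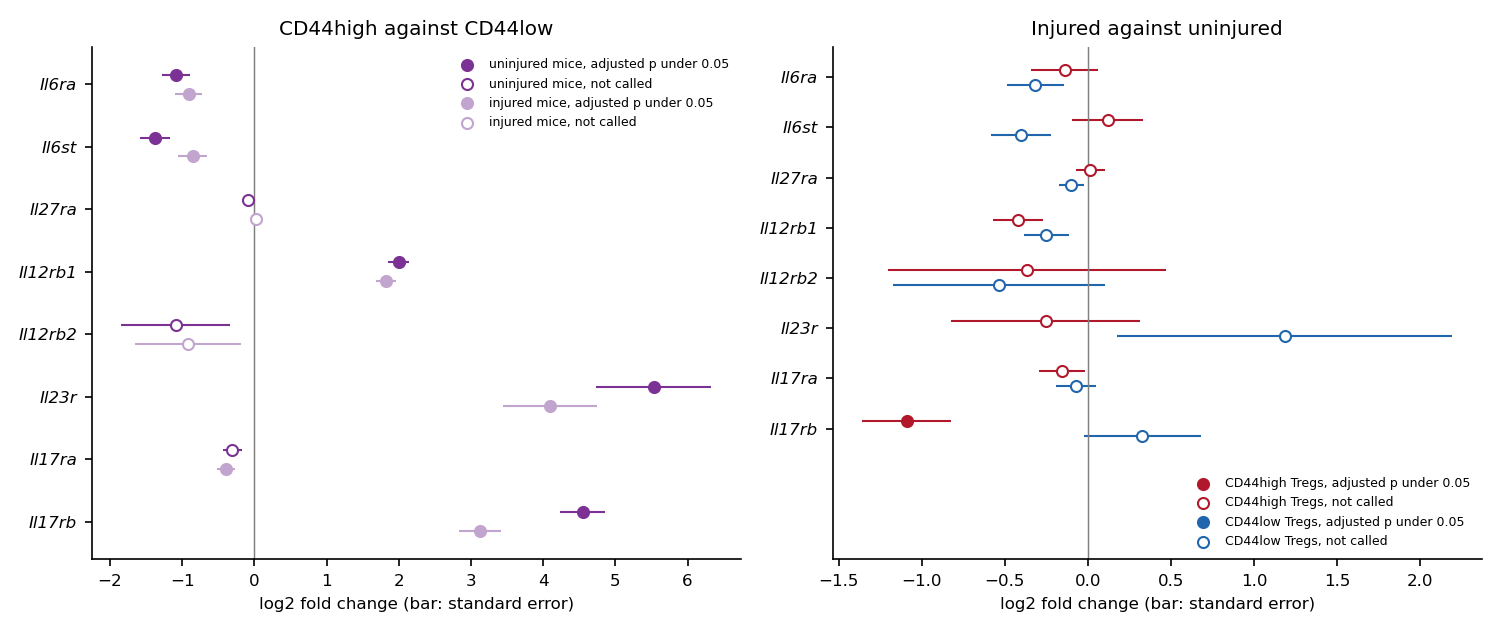
Log2 fold change of each receptor chain for CD44high against CD44low Tregs (left) and for injured against uninjured mice (right), with the standard error as bars. Filled points passed edgeR's test at an adjusted p of 0.05. On the left Il12rb1, Il23r and Il17rb lie above 0 and Il6ra and Il6st below 0 in both settings, and on the right 1 filled point, Il17rb in CD44high Tregs (−1.09), stands out.

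Compared with each other per kilobase of exon, the chains took a different order in the 2 subsets. Il27ra was highest in all 4 groups, at 147 ± 11.3, 156 ± 9.31, 148 ± 8.02 and 146 ± 10.6 CPM per kb in uninjured CD44high, uninjured CD44low, injured CD44high and injured CD44low Tregs. In uninjured CD44high Tregs Il12rb1 (51.3 ± 1.26 CPM per kb) came next, above Il17ra (43.7 ± 4.05), followed by Il6st (13.1 ± 1.51), Il17rb (12.0 ± 2.53) and Il6ra (11.6 ± 1.10), whose ranges overlapped. Il23r (2.63 ± 1.12) and Il12rb2 (0.209 ± 0.240) were the lowest. Uninjured CD44low Tregs instead had Il17ra (54.1 ± 6.23), Il6st (34.1 ± 5.48), Il6ra (24.7 ± 2.14) and Il12rb1 (12.8 ± 2.39) after Il27ra, without overlap between neighbors, and Il17rb (0.504 ± 0.319), Il12rb2 (0.436 ± 0.218) and Il23r (0.0543 ± 0.121) under 1 CPM per kb. Il17rb and Il12rb2 overlapped and exchanged places when the longest transcript was used as the length. In injured mice Il17ra (39.2 ± 8.31) and Il12rb1 (38.2 ± 7.23) overlapped in CD44high Tregs, and Il17rb (5.64 ± 0.767) stood below Il6ra (10.5 ± 2.87). The order of means in injured CD44low Tregs was that of uninjured mice, but neighbors overlapped. Il6st (17.4 to 34.6) overlapped Il6ra (12.2 to 29.0), and Il6ra overlapped Il12rb1 (9.06 to 13.2).

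Because each receptor needs 2 chains, private and shared chains were also set against each other within a library, as ratios of CPM per kb. Il27ra exceeded Il6st by 10.2 to 12.9 times in uninjured CD44high libraries and by 3.56 to 6.07 times in uninjured CD44low libraries, and by 7.78 to 18.0 and 4.33 to 7.71 times in injured mice. With the length trend described below taken out, the fitted difference between subsets in this ratio went from 2.44-fold to 1.60-fold in uninjured and from 1.84-fold to 1.48-fold in injured mice. The ratio of Il6ra to Il6st was 0.839 to 0.957 in uninjured CD44high and 0.575 to 0.799 in uninjured CD44low libraries, without overlap, and 0.705 to 0.854 and 0.552 to 0.985 in injured mice. Il17rb reached 0.228 to 0.353 of Il17ra in uninjured and 0.129 to 0.178 in injured CD44high libraries, without overlap, and at most 0.0191 in any CD44low library. Its fitted log2 difference between uninjured subsets went from 4.85 to 4.25 with the length trend taken out. Il23r was 0.0216 to 0.0732 of Il12rb1 in uninjured CD44high libraries, and Il12rb2 was at most 0.0106 of it, whereas in uninjured CD44low libraries Il12rb2 was 0.0121 to 0.0669 of Il12rb1. On summed counts Il12rb2 was 0.0720 of Il23r (95% counting interval 0.0423 to 0.116) in uninjured CD44high Tregs and 9.02 of it (3.33 to 34.3) in uninjured CD44low Tregs. In injured mice the same ratio was 0.0709 (0.0423 to 0.113) and 2.51 (1.31 to 5.21). Single libraries weighed on the uninjured values. Without the CD44high library 3, which held 12 of the 19 Il12rb2 counts, the ratio was 0.0292, and without the CD44high library 5 it was 0.113. All 4 Il23r counts of uninjured CD44low Tregs were in library 5, where Il12rb2 had 3, and without it the ratio was at least 11.4 with a floor of 3 counts over the group. These ratios describe RNA and were not tested apart from the fold changes above, and the intervals cover counting error only.

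**Figure D3:**
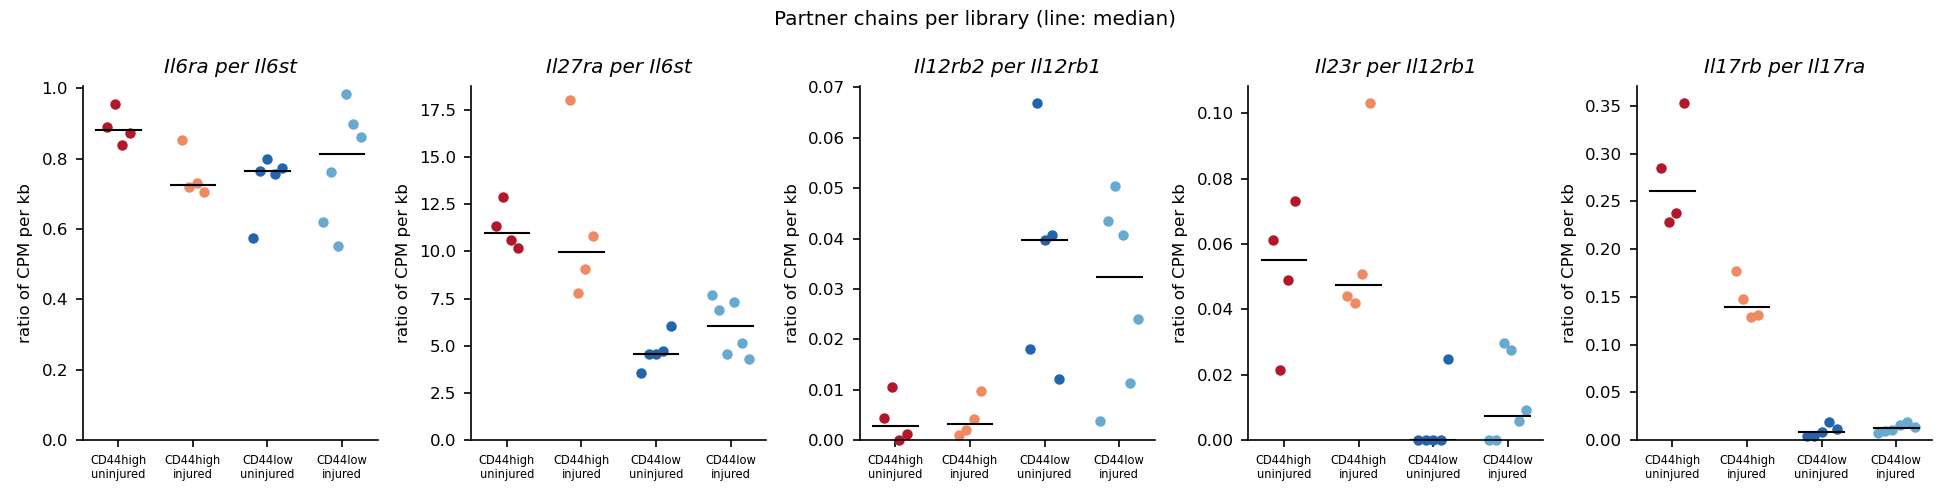
Ratio of a private chain to its shared chain in each library, as CPM per kb over CPM per kb, on linear axes that start at 0. Points are libraries and lines are medians. Il27ra per Il6st, Il23r per Il12rb1 and Il17rb per Il17ra have higher medians in CD44high libraries, with some overlap for Il23r per Il12rb1. Il12rb2 per Il12rb1 has higher medians in CD44low libraries, and Il6ra per Il6st is apart in uninjured mice (0.839 to 0.957 against 0.575 to 0.799) and overlaps in injured mice.

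The members that were lower in CD44high Tregs have long transcripts, 8639 bases for Il6ra, 8678 for Il6st and 7752 for Il17ra (longest coding transcript in GENCODE vM21), against 2094 to 2998 for the other 5. Counts of long transcripts as a class also differed between libraries, and in uninjured mice they differed by subset, so that a property of the libraries and a difference between the cells cannot be told apart. The median deviation, on the log2 CPM scale, of 894 genes of at least 7000 bases minus that of 2701 genes of at most 2000 bases was −0.26 to −0.08 in uninjured CD44high and 0.31 to 0.74 in uninjured CD44low libraries. It ranged from −0.91 to 0.02 in injured CD44high and from −0.53 to 0.58 in injured CD44low libraries, with −0.91 in the injured CD44high library 2, which was also the lowest of its group for Il6ra, Il6st and Il17ra. With each library's trend on length taken out, Il6ra was still lower in CD44high Tregs at a log2 value of −0.61 in uninjured (adjusted p = 0.000225) and −0.65 in injured mice (adjusted p = 9.09e-05). Il6st remained lower at a log2 value of −0.89 (adjusted p = 8.34e-06) and −0.62. Il17ra changed to 0.13 (adjusted p = 0.414) in uninjured and −0.18 (adjusted p = 0.254) in injured mice and was called in neither. Il12rb1, Il23r and Il17rb kept 1.91, 5.41 and 4.38 in uninjured mice.

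**Figure D4:**
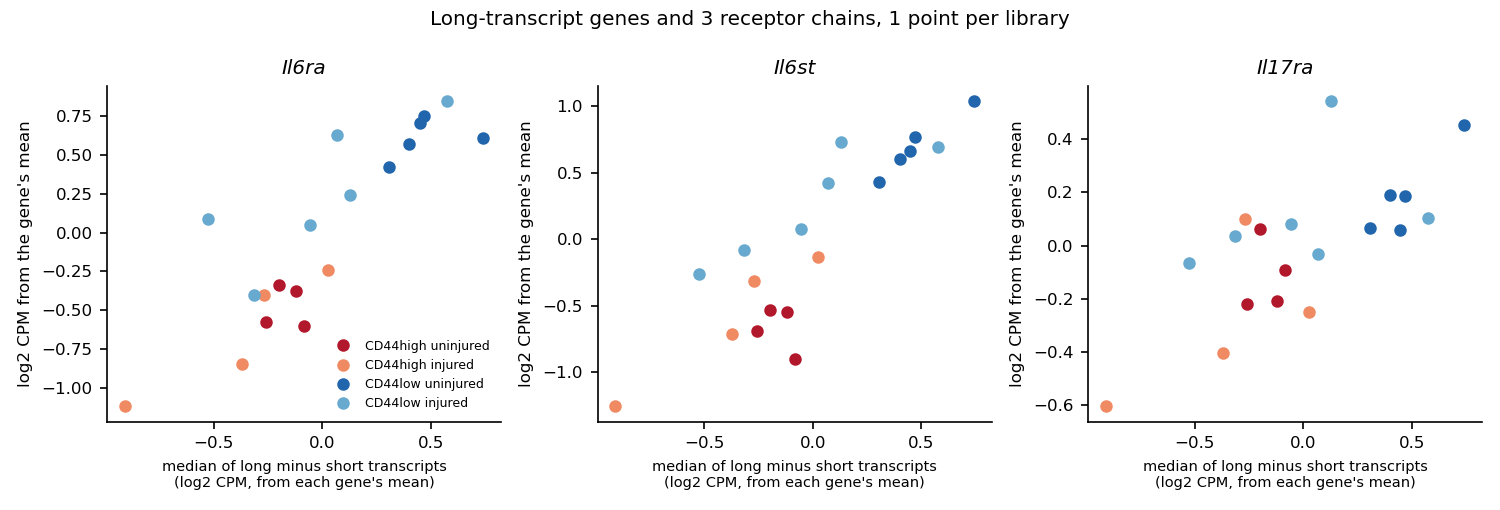
Long against short transcripts in each library (horizontal axis: median log2 CPM deviation of long minus short transcripts) against the deviation of Il6ra, Il6st and Il17ra from their own mean (vertical axis, log2 CPM). Points are the 19 libraries, colored by group. Libraries with higher counts of long transcripts, such as the uninjured CD44low libraries (0.31 to 0.74), also lie high for the 3 chains.

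The next comparison was between injured and uninjured mice within each subset, 7 days after the burn. In CD44high Tregs Il17rb fell by 2.13-fold, from 25.3 ± 5.30 to 11.8 ± 1.61 CPM (SD, n = 4 each). The other 7 members were not called, and in CD44low Tregs none of the 8 was. For Il17rb the log2 fold change was −1.09 ± 0.268 (adjusted p = 0.0273), and all 4 injured libraries were below all 4 uninjured libraries. The counts were 405 against 657, a ratio of 0.466 (95% counting interval 0.411 to 0.529, which leaves out the spread between libraries). This was 1 member called of 8, in a comparison that called 2.38% of all genes (1.06% higher and 1.33% lower). The log2 value stayed between −1.18 and −0.98 when any library was left out, but the call was lost without any of 7 of the 8 CD44high libraries: the adjusted p was 0.108, 0.0502 and 0.113 without the uninjured libraries 2, 3 and 5, and 0.0883, 0.0646, 0.0518 and 0.117 without the injured libraries 2, 3, 4 and 5. Over all alternatives the adjusted p lay between 0.00219 and 0.117.

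Il12rb1 was also lower in every injured CD44high library than in any uninjured one, at −0.42 ± 0.149 on the log2 scale, but missed the threshold (unadjusted p = 0.00942, adjusted p = 0.153). It and Il17rb were the 2 members whose CD44high groups did not overlap between injured and uninjured mice, against 13.3% of all genes. Il23r (−0.26 ± 0.571, adjusted p = 0.884) and Il12rb2 (−0.37 ± 0.838, adjusted p = 0.887) had wide errors. Il6ra (−0.14 ± 0.201, adjusted p = 0.804), Il6st (0.12 ± 0.213, adjusted p = 0.851), Il27ra (0.02 ± 0.0894, adjusted p = 0.958) and Il17ra (−0.16 ± 0.141, adjusted p = 0.663) were not called, and their groups overlapped. In the same libraries the sum of dendritic cell markers was lower after injury without overlap and that of myeloid markers ranged higher with overlap. Of their tested genes 0 of 5 and 1 of 8 were called, against 2.38% of all genes. Cd44 had a log2 fold change of −0.45 ± 0.123 (adjusted p = 0.0546).

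In CD44low Tregs edgeR called 0 of the 8 members at an adjusted p under 0.05, where it called 7.6% of all genes (4.24% higher and 3.36% lower), and DESeq2 called 0 as well. No member had groups that did not overlap, against 4.68% of all genes. In edgeR 1 member had an unadjusted p under 0.05, Il6st (−0.40 ± 0.180, adjusted p = 0.159). Il6ra had a log2 fold change of −0.32 ± 0.170 (adjusted p = 0.24) and Il12rb1 one of −0.25 ± 0.135 (adjusted p = 0.244). Of the injured CD44low libraries 3 carry a second number (1_2, 4_2 and 5_2), whose meaning the labels do not give. These had 148 to 251 CPM of Il6ra, against 106 to 165 CPM in the other 3, with overlap. Myeloid markers were also higher after injury in CD44low libraries, with 3 of 8 tested genes called, as was Klrb1c, 1 of 5 tested CD8 and NK cell genes. With the 3 second-number libraries left out, Il6ra was called lower after injury (−0.62, adjusted p = 0.0145). The value of long minus short transcripts was −0.32, −0.06 and 0.13 in injured CD44low libraries 1, 2 and 5, against 0.31 to 0.74 in uninjured CD44low libraries. With the length trend taken out and all libraries kept, Il6ra was at −0.034 (adjusted p = 0.883) and Il6st at −0.10 (adjusted p = 0.656). Il17rb (0.33 ± 0.351, adjusted p = 0.587) and Il23r (1.19 ± 1.01, adjusted p = 0.481, on 12 against 4 counts) were too low in this subset for a firm value.

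Whether the difference with injury was unequal in the 2 subsets was tested as an interaction. edgeR called 0 of the 8 members, against 0.645% of all genes (0.192% higher and 0.454% lower), DESeq2 called 0, and 1 member had an unadjusted p under 0.05. That was Il17rb, whose injury effect was lower in CD44high than in CD44low Tregs, with an interaction of −1.42 ± 0.443 on the log2 scale (adjusted p = 0.163). Without the uninjured CD44low library 4, the highest of its group for Il17rb, the value was −1.87 and was called (adjusted p = 0.0384). Il6st had an interaction of 0.52 ± 0.279 (adjusted p = 0.515). Each group enters 2 of these comparisons between groups, so their values are not independent of each other.

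The other genes of these pathways were read from 8 lists. None of 9 other receptors of the gp130 class passed the filter on low counts (highest group mean 1.24 CPM, Csf3r), and neither did 3 other IL-17 receptors (highest 1.79 CPM, Il17rd), so the members named above are the chains of these families that could be tested. Of 19 ligands 4 could be tested, and 4 had no count in any library, Il17a, Il17b, Il25 and Il31, which allows at most 0.0227 CPM over all libraries. Ebi3, a subunit of IL-27 and IL-35, was higher in CD44high Tregs by 3.53 ± 0.186 on the log2 scale in uninjured mice (97.4 ± 10.1 against 8.49 ± 1.96 CPM, adjusted p = 2.68e-13) and by 2.67 ± 0.164 in injured mice. It was also higher after injury in CD44low Tregs (1.04 ± 0.176, adjusted p = 0.00135), where it reached 17.4 ± 4.14 CPM. Clcf1, a cytokine of the gp130 class, was lower in CD44high Tregs at a log2 value of −1.20 ± 0.251 and −1.48 ± 0.241, and Osm was lower in injured mice (−0.46 ± 0.140, adjusted p = 0.0126). After injury edgeR and DESeq2 called 0 of the 4 ligands in CD44high Tregs, where edgeR called 2.38% of all genes, with 1 at an unadjusted p under 0.05.

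Of 16 JAK-STAT genes, 2 were higher and 7 lower in CD44high Tregs of uninjured mice, and 0 were higher and 8 lower in injured mice, against 46.1% and 37.4% called over all genes. Their median log2 fold change was −0.23 and −0.28, beside 0.01 and −0.00 over all genes. These medians were taken with the length trend left in, and its part in them was not tested. Socs1, which blocks JAK kinases, was lower in CD44high Tregs at a log2 value of −0.63 ± 0.109 and −1.19 ± 0.108. Stat5a was lower at a log2 value of −0.82 ± 0.137 and −0.60 ± 0.132. Cish, a feedback inhibitor of STAT5 signaling, was higher by 0.51 ± 0.133 (adjusted p = 0.00313) in uninjured and lower at a log2 value of −0.34 ± 0.130 (adjusted p = 0.0439) in injured mice. After injury 2 of the 16 rose and 2 fell in CD44high Tregs, where 2.38% of all genes were called. Stat4, the main STAT of IL-12, rose by 0.48 ± 0.111 (adjusted p = 0.019), and Ptpn6, a phosphatase that dampens cytokine signaling, by 0.51 ± 0.115 (adjusted p = 0.0171). Cish fell from 494 ± 34.5 to 248 ± 41.5 CPM (adjusted p = 0.000217), with a called interaction (−0.85 ± 0.186, adjusted p = 0.028), and Socs1 fell from 191 ± 23.7 to 135 ± 9.01 CPM (adjusted p = 0.0182). In CD44low Tregs Ptpn6 (0.43 ± 0.0990, adjusted p = 0.0113) and Socs3, the inhibitor that binds gp130 (0.53 ± 0.116, adjusted p = 0.00873), rose and 0 fell, where 7.6% of all genes were called.

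Of 17 genes of IL-17 receptor signaling, 3 were higher and 5 lower in CD44high Tregs of uninjured mice, and 2 higher and 3 lower in injured mice, where 46.1% and 37.4% of all genes were called, so the list did not stand out by its count. Traf6, the ubiquitin ligase recruited by Act1, was lower at a log2 value of −1.56 ± 0.213 (adjusted p = 2.19e-06) and −1.37 ± 0.205 (adjusted p = 1.1e-05), and Traf4, which competes with TRAF6, at a log2 value of −0.96 ± 0.133 and −0.75 ± 0.127. Cebpb, a transcription factor induced by IL-17, was higher by 0.88 ± 0.194 and 0.89 ± 0.186. After injury edgeR and DESeq2 each called 0 of the 17 in CD44high Tregs, where edgeR called 2.38% of all genes, and 1 had an unadjusted p under 0.05. In CD44low Tregs Nfkbiz, a coactivator of IL-17 target genes, fell by 0.74 on the log2 scale (SE 0.186, adjusted p = 0.0191). It was the 1 gene of the 17 called there, against 7.6% of all genes. Of 4 tested genes of receptor shedding, 2 were higher in CD44high Tregs of uninjured mice and 3 in injured mice. Rhbdf2, which escorts the sheddase ADAM17, was higher by 1.20 ± 0.154 and 0.52 ± 0.146, and Adam17 by 0.62 ± 0.151 in injured mice (adjusted p = 0.00247). Rhbdf1 had no count in the uninjured CD44low libraries and 77 in the CD44high libraries, at least 32.7-fold higher with a floor of 3 counts over the group. After injury edgeR called 0 of the 4 in either subset, with 1 in each at an unadjusted p under 0.05, and DESeq2 called 0 in CD44high and 1 in CD44low Tregs.

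Genes that lie downstream of IL-12 and of IL-6 and IL-23 in helper T cells were mostly higher in CD44high Tregs. Of 8 Th1 genes 7 were higher and 0 lower in each setting, and of 10 Th17 genes 9 were higher in uninjured and 8 in injured mice (median log2 fold change 2.17 and 1.96), again with 0 lower, where 24.7% and 20.1% of all genes were called higher. Tbx21, the Th1 regulator T-bet, was higher by 2.35 ± 0.198 in uninjured and 1.34 ± 0.191 in injured mice, and Gzmb, encoding granzyme B, by 6.77 ± 0.325 and 5.81 ± 0.285. Rora, a Th17 regulator, was higher by 3.11 (adjusted p = 7.61e-16) and 2.47 (adjusted p = 1.54e-14), with an interaction of −0.64 ± 0.147 (adjusted p = 0.0426), and Maf by 3.03 ± 0.236 and 2.27 ± 0.212. For injury, 2.38% of all genes were called in CD44high Tregs (1.33% lower) and 7.6% in CD44low Tregs (4.24% higher). After injury 2 of the 8 Th1 genes fell in CD44high Tregs, Tbx21 by 1.20 on the log2 scale (SE 0.200, adjusted p = 0.00121, from 32.3 ± 1.69 to 14.1 ± 2.35 CPM) and Cxcr3, a chemokine receptor, by 0.90 (SE 0.167, adjusted p = 0.00306). Cxcr3 also had a called interaction (−1.13 ± 0.224, adjusted p = 0.0138). In CD44low Tregs edgeR called 0 of the 8, with 2 at an unadjusted p under 0.05, and DESeq2 called 1. Of the 10 Th17 genes Tmem176b fell in CD44high Tregs (−0.91 ± 0.248, adjusted p = 0.0497), and Batf (0.62 ± 0.137, adjusted p = 0.00905) and Maf (0.76 ± 0.225, adjusted p = 0.0409) rose in CD44low Tregs. The calls of Tmem176b, Maf and the Rora interaction were near the threshold and were lost under 19 of 27, 12 of 27 and 17 of 26 alternatives. These genes have many inputs other than the 8 receptors.

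**Figure D5:**
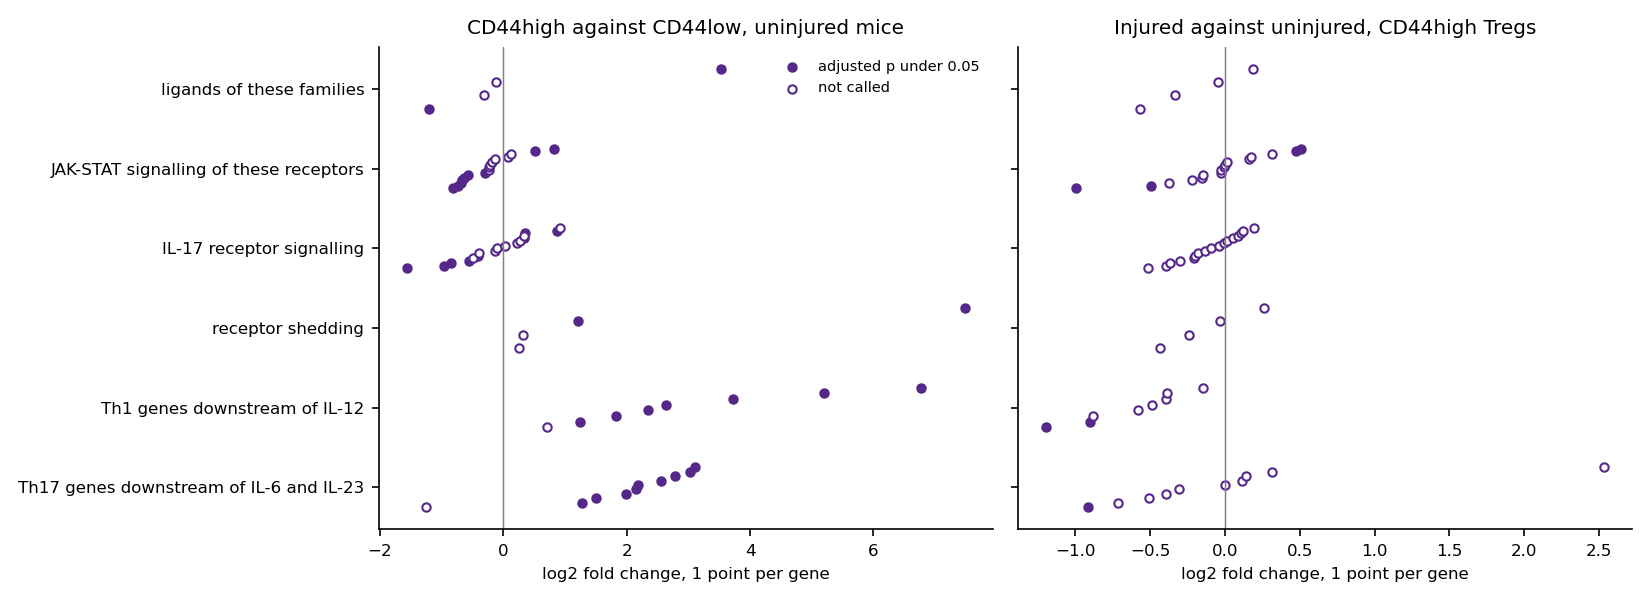
Log2 fold change of the tested genes of 6 lists around the receptors, for CD44high against CD44low Tregs in uninjured mice (left) and for injured against uninjured mice in CD44high Tregs (right). Each point is a gene, and filled points have an adjusted p under 0.05. On the left 7 of 8 Th1 genes and 9 of 10 Th17 genes are filled and above 0, while JAK-STAT genes lie mostly below 0, and on the right few points are filled.

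The genes whose pattern was nearest to a member were sought by the root mean square difference in log2 CPM over the 19 libraries, with each gene set to its own mean. Cd44 itself was nearest to Il12rb1 (0.215, against an SD of 1.01 for Il12rb1), before Fam129a (0.236). Larp1 (0.144) and Nsd3 (0.162) were nearest to Il6ra, Ncoa3 (0.148) and Atp8a1 (0.178) to Il6st, and Mau2 (0.132) and Dnm2 (0.133) to Il17ra. The longest coding transcripts of Larp1, Nsd3, Ncoa3 and Atp8a1 have 6617, 10105, 7531 and 8178 bases, and those of Mau2 and Dnm2 5369 and 3510. The part of the length trend in these likenesses was not tested. Kif23 (0.448) and Cav2 (0.461) were nearest to Il17rb, with an SD of 1.91, and Aunip (0.600) and Dkkl1 (0.625) to Il23r, with an SD of 2.01. For Il27ra the nearest genes (Ubash3a, 0.0916, and Cnot2, 0.0916) lay about as far away as its own spread (SD 0.0981), and for Il12rb2 they lay at 0.696 (Tmem81) and 0.706 (Bank1) against an SD of 0.986. All comparisons rest on the same 19 libraries, which share the split by CD44.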

How the data were processed

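RNA of sorted CD44high and CD44low Tregs was copied to cDNA with SMART-Seq v4 and sequenced from Swift 2S libraries, 19 in all. The authors counted reads per gene through the VIPER workflow and deposited raw counts, without normalization and with replicates kept apart. The submitters' processing notes name bcl2fastq 2.18, STAR 2.5 and the builds mm9 and mm10 without their roles, and no annotation is given in these sources. The kit does not mark strand, so reads of overlapping genes cannot be told apart.

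The main tool was edgeR 4.0.16 (R 4.3.3, limma 3.58.1), with DESeq2 1.42.0 as an alternative. Python 3.11.15 served for sequences and, with matplotlib 3.10.9, for plots. All 11464 genes that passed edgeR's filter (minimum count of 10) were fitted with TMM factors and 1 mean per group, without covariates. Groups and the interaction were compared by edgeR's two-sided quasi-likelihood test, adjusted after Benjamini-Hochberg over all genes tested, with a threshold of 0.05. Standard errors were derived from the F statistic. Log2 CPM used a prior count of 2. Counting intervals (95%) are exact binomial intervals that treat each read as independent, and they cover counting error only. Reads carry no molecular identifiers, so copies of the same molecule cannot be told apart and the intervals may be too narrow. Library totals lay between 5582234 and 9433610 counts. Transcript lengths came from GENCODE vM21 and promoters from RefSeq (GRCm38.p6), matched for 5 of the 8 members, with those of Il12rb1, Il27ra and Il17ra not used here.

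The members, the gene lists and the tests were chosen with earlier results of these data known. Genes named are the 8 members, up to 2 genes of smallest p per list, comparison and direction among those called, the 2 genes nearest to each member, and Foxp3, Cd4, Cd44 and 1 further sort marker, which is not reported here. Marker genes, Csf3r, Il17rd and the ligands without counts were named after their values were seen. On simulated counts with the real groups the test recovered 61.8% to 74.7% of 2-fold and 87.5% to 95.5% of 4-fold changes in the 4 comparisons between groups, and 49.2% and 87.0% for the interaction. The simulation changed few genes, unlike the data, where 46.1% and 37.4% of genes were called between subsets. Its rates are averages over genes drawn at random and do not give the rate for members of low count. Alternatives were DESeq2, RLE factors, no filter, the compared groups alone, a replicate block, a 2-fold threshold, leaving out the 3 second-number libraries, summing 2 of them with their namesakes, and omitting each library. Taking out the trend on transcript length was added after the data were seen, as was leaving out libraries from the ratio of Il12rb2 to Il23r.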

Additional observations from a re-analysis of the deposited data

Results flagged for a closer look

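Among 32 sets of libraries (8 members in 4 groups) tested on log2 CPM for 1 library far from the others with Dixon's criterion at 95%, 2 were found, and chance gives about 1 in 20. Il23r was at 0.675 CPM in the uninjured CD44low library 5 and at 0 in the other 4 libraries of that group, on 4 counts. With those 4 libraries equal, any count in library 5 would meet the criterion, so the rate of 1 in 20 does not apply to this set. Il17ra was at 532 CPM in the injured CD44low library 5, against 349.8 to 393 CPM in the other 5 libraries, with a gap of 0.723 of the whole range on the log2 scale.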

How the results depend on the processing

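Of 1067 values for the members under the alternatives, 1024 kept their direction and their side of the threshold. So did 2395 of 2533 values for calls of other named genes, with 138 calls lost, and 999 of 1112 counts for the pathway lists stayed within 1.5 times. Calls lost most often were Tmem176b for injury in CD44high Tregs (19 of 27 alternatives), the Rora interaction (17 of 26) and Tmem81 between uninjured subsets (16 of 27). Next came Maf for injury in CD44low Tregs (12 of 27), Cish and Tmem81 between injured subsets (9 of 27 each) and the Cish interaction (8 of 26). In uninjured mice between 5 and 6 members were called between subsets when a library was left out, and in injured mice between 5 and 6. With a 2-fold threshold the count in injured mice was 3 instead of 6, since Il6ra, Il6st and Il17ra changed by less. The injury count in CD44high Tregs, 1, ranged from 0 to 1 when a library was left out, and that in CD44low Tregs stayed at 0 but was 1 (Il6ra) without the 3 libraries with a second number. The interaction count ranged from 0 to 1.

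Whether equal numbers pair the libraries was not settled: of 8 pairs with the same number and injury state, 4 had correlated deviations above 0.1 (median 0.082), against 5 of 36 pairs with other numbers (median −0.021), and 3 of 7 CD44high libraries correlated best with their own number. A replicate block left 5, 5, 1, 0 and 0 members called in the 5 comparisons, and Il17ra in injured mice was not called with it (−0.38, adjusted p = 0.0618). Il17ra in uninjured mice was called with the compared groups alone (adjusted p = 0.00759) or 2 pairs of libraries summed (0.0403), and without the CD44high uninjured library 2 (0.0423), the CD44high injured library 2 (0.0418) or 4 (0.0431), or the CD44low injured library 5 (0.0297). Over all genes, 273 were called for injury in CD44high Tregs (477 by DESeq2, 152 to 601 over the alternatives), 871 in CD44low Tregs (1460 by DESeq2, 440 with the replicate block, up to 1893 without library 5_2) and 74 for the interaction (215 by DESeq2, 43 to 314).

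Signs turned for values that were not called. With 1 library left out, the log2 value ran for injury in CD44high Tregs from −0.29 to 0.0067 (Il6ra), −0.048 to 0.31 (Il6st), −0.88 to 0.69 (Il12rb2) and −0.016 to 0.083 (Il27ra). It ran from −0.028 to 0.058 for Il27ra between injured subsets and from −0.15 to 0.025 for Il17ra for injury in CD44low Tregs. For the interaction it ran from −0.34 to 1.21 (Il12rb2) and −0.23 to 0.0085 (Il17ra). Taking out the length trend gave −0.042 for the Il6ra interaction, −0.046 for Il27ra between injured subsets, and for Il17ra 0.13 between uninjured subsets and 0.24 for injury in CD44low Tregs. Without the second-number libraries Il27ra between injured subsets was −0.051 and Il17ra for injury in CD44low Tregs 0.042. The cause of these changes was not tested. For lack of counts, Il12rb2 could not be fitted in some comparisons of 2 groups alone. Il17rb and Il23r could not be fitted in that of injury in CD44low Tregs. The interaction has no such fit.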
